A study of Mus musculus with 2 samples.

Results

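The Gimap genes encode GTPases of immunity-associated proteins, a vertebrate family of GTP-binding proteins that sit on intracellular membranes and are best known from lymphocytes. The 8 Gimap genes with a row in both count matrices, found by symbol, were taken as the family (Gimap1, Gimap3, Gimap4, Gimap5, Gimap6, Gimap7, Gimap8 and Gimap9), of 32285 genes in all, and each of the 8 had counts in both libraries. The data were single-cell RNA profiles of haematopoietic stem cells, the bone marrow cells that renew themselves and give rise to all blood lineages. They came from wild-type (WT) C57Bl6 mice of 8 weeks, and no label says how many animals were pooled. One library was labelled ST-HSC, for short-term stem cells sorted from lineage-negative, Sca-1 and Kit positive (LSK) marrow as CD34 negative and positive for both CD150 and CD48. The other was labelled LT-HSC, for long-term stem cells sorted from LSK marrow as CD34, CD48 and Flk2 negative and CD150 positive.

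In lymphocytes the family works at lysosomes, the endoplasmic reticulum and other inner membranes, where several members affect survival and autophagy. Mice without Gimap5 lose T cells and have poorly maintained stem cells, and mice without Gimap1 lack mature T and B lymphocytes. In human cells GIMAP6 binds GABARAPL2, a member of the ATG8 family of autophagy proteins, and human GIMAP7 acts as a GTPase that works on its relative GIMAP2. Gimap3 is a close mouse relative of Gimap5 that affects how mitochondrial DNA variants are sorted in blood cells, and Gimap4 acts late in the death of mouse T cells.

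With 1 library per group there was no replicate and no test. Each level is a CPM, the count per 1000000 summed unique molecular identifiers (UMIs, tags that mark single captured RNA molecules) of a set of cells. Ratios put ST-HSC over LT-HSC, except where 2 cell classes of a library are compared. Intervals are exact 95% intervals and cover counting error only. The ST-HSC library kept 6648 cells with 111783180 UMIs and a median of 13402 UMIs per cell, and the LT-HSC library kept 2722 cells with 64673871 UMIs and a median of 17595. The 2 libraries shared 8 barcodes, 6 of them among the kept cells. The RNA of the sort markers went against the ST-HSC label for 2 of them. Slamf1, which encodes CD150, was at 1.26 CPM in ST-HSC against 26.5 CPM in LT-HSC, and Cd34 was at 242 CPM in ST-HSC against 29.2 CPM in LT-HSC. Cd48 RNA was at 74.7 CPM in ST-HSC against 35.3 CPM in LT-HSC, the order of the sort, and Flt3 RNA (the gene for Flk2) stood at 291 CPM in ST-HSC against 5.50 CPM in LT-HSC. The names ST-HSC and LT-HSC therefore stand for the libraries with those labels throughout.

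The 8 genes lie side by side on chromosome 6 within 123.6 kb, from 48647234 to 48770851 of the mouse build mm10 (GENCODE M21 annotation). Going along the plus strand, Gimap8 (ENSMUSG00000064262) came first, followed by Gimap9, Gimap4, Gimap6, Gimap7, Gimap1, Gimap5 and Gimap3, with Gimap6 and Gimap3 on the minus strand. Gimap1 spans 48739054 to 48743795 and Gimap6 spans 48701582 to 48708225. Gimap7 spans 48718621 to 48724636 and Gimap4 spans 48684549 to 48692060. A read-through gene, Gm28053, overlaps Gimap7, Gimap1 and Gimap5 on the same strand and was not a row of the count matrices. Gimap1os, an antisense gene at 7.28 CPM in ST-HSC and 8.21 CPM in LT-HSC, overlaps Gimap1 on the other strand. Gimap3 and Gimap5 are close relatives, so their split of reads is uncertain.

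**Figure D1:**
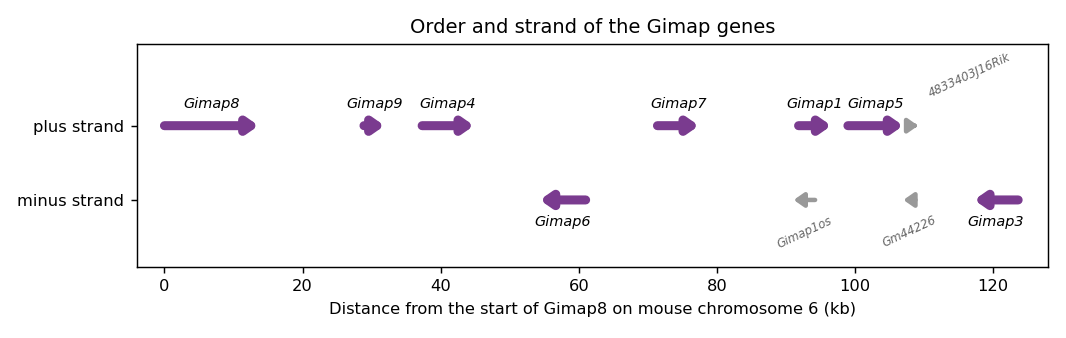
Map of the Gimap genes on mouse chromosome 6, with the distance from the start of Gimap8 in kb on the horizontal axis and the strand on the vertical axis; purple arrows are the 8 family members and grey arrows the other counted genes between them, each drawn to scale from its start to its end. The family fills 123.6 kb, with Gimap6 and Gimap3 on the minus strand.

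Promoter sequence is shown for 4 of the genes because their levels carry the results below. Gimap6 and Gimap1 were the most abundant members, Gimap7 stood higher in ST-HSC in each set of cells with counts enough to compare, and Gimap9 was the member least lowered in Car1-high cells. Each line holds the 250 bases before the RefSeq start of the gene (build GRCm38.p6), written 5′ to 3′ on the gene's own strand, with matches to the RUNX motif TGTGGT, or ACCACA on the other strand, in capitals. They lie at chr6:48738797-48739046 (plus strand) for Gimap1, chr6:48708245-48708494 (minus strand) for Gimap6, chr6:48718371-48718620 (plus strand) for Gimap7 and chr6:48675885-48676134 (plus strand) for Gimap9.
Gimap1: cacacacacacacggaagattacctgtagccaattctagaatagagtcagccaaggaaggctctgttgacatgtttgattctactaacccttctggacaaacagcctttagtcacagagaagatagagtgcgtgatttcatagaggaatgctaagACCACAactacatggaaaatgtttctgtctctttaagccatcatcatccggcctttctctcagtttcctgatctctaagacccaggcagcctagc
Gimap6: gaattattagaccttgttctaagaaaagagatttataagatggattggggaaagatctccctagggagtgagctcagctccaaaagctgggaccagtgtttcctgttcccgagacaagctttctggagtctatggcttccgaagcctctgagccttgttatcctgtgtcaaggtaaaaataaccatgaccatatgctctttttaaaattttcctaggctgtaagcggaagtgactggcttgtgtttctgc
Gimap7: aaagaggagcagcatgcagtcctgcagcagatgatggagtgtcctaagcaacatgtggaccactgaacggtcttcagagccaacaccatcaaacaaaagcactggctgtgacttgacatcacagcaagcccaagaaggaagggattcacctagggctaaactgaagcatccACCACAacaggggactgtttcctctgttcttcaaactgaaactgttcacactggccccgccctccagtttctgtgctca
Gimap9: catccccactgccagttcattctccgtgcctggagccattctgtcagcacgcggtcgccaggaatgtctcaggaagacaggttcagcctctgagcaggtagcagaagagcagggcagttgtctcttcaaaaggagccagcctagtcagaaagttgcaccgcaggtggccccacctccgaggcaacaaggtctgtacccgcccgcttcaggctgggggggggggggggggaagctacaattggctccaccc
Gimap1 held its match 95 bases before the start and Gimap7 79 bases before it, and Gimap4, not printed, held one 145 bases before it. RefSeq had 9 such windows for the 8 members (Gimap8 has 2), and 3 of the 9 held TGTGGT on either strand, against 14.0% of all 32851 mouse promoter windows of the same length. Searched on both strands, none of the 9 windows held the GATA motif AGATAA (9.99% of all windows), the ETS motif CCGGAAGT (2.88%), the E-box CAGCTG (13.0%), the PAR bZIP motif TTACGTAA (0.113%) or the RBPJ motif TGGGAA (21.6%). The TATA motif TATAAA was in 1 of the 9 windows, that of Gimap6, against 12.4% of all windows, and the general E-box CANNTG, which CAGCTG also fits, in 7 of 9 against 66.2%. These matches describe the letters of the windows alone.

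Over all kept cells, Gimap transcripts were plentiful in both libraries and 1.51-fold higher in ST-HSC (95% interval 1.49 to 1.54). The 8 genes summed to 425 CPM in ST-HSC against 281 CPM in LT-HSC. Since the protocol counts 1 tag per molecule at the 3′ end, levels of different genes were compared in CPM without a correction for length. Gimap6 and Gimap1 led in both libraries, and together they made up the larger part of all Gimap UMIs: Gimap6 had 44.4% of them in ST-HSC and 35.4% in LT-HSC, and Gimap1 had 27.3% in ST-HSC and 33.6% in LT-HSC.

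Gimap6 was at 189 CPM in ST-HSC and 99.5 CPM in LT-HSC, a ratio of 1.90 (1.85 to 1.95). Gimap1 was at 116 CPM in ST-HSC and 94.3 CPM in LT-HSC, a ratio of 1.23 (1.19 to 1.27). Both intervals leave out 1, but they hold no spread between libraries, and both ratios are below the 2-fold size used as a call. The log2 ratio of Gimap1, 0.30, became 0.17 under TMM and 0.15 under median-of-ratios scaling. Gimap7, at 16.4 CPM in ST-HSC and 2.07 CPM in LT-HSC, differed most, with a ratio of 7.93 (6.65 to 9.52). Gimap4 followed with 13.4 CPM in ST-HSC and 2.97 CPM in LT-HSC, a ratio of 4.50 (3.87 to 5.26). Gimap8, which unlike its relatives carries several GTP-binding domains, was at 21.2 CPM in ST-HSC and 14.1 CPM in LT-HSC, a ratio of 1.498 (1.39 to 1.62). Gimap5 and Gimap9 were close to equal between the libraries. Gimap5 had 31.2 CPM in ST-HSC and 28.9 CPM in LT-HSC, a ratio of 1.08 (1.02 to 1.14) that turned below 1 under TMM and median-of-ratios scaling. Gimap9 had 34.7 CPM in ST-HSC and 36.7 CPM in LT-HSC, a ratio of 0.946 (0.899 to 0.996). Gimap3 was the scarcest member in ST-HSC, with 3.78 CPM there and 2.27 CPM in LT-HSC, a ratio of 1.66 (1.38 to 2.02).

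Of the 7 members with a mean of at least 5 CPM, which leaves out Gimap3, 2 had a ratio of at least 2 (Gimap4 and Gimap7) and none of at most 0.5. Among all 10412 genes at that level, 10.8% were 2-fold or more higher and 2.88% were at 0.5 or below, counted by size and with no test. The median log2 ratio was 0.66 over the 8 members and 0.12 over all genes. Genes higher in ST-HSC were 79.0% of the genes past either size when scaled by library totals (1126 higher and 300 lower), 68.7% under TMM scaling (917 and 417) and 67.3% under median-of-ratios scaling (894 and 434). The median log2 ratio of all genes became -0.01 under TMM and -0.02 under median-of-ratios scaling, which is the shift to read the all-cell ratios against.

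A small set of cells in ST-HSC carried much of the signal of 2 members. In 140 ST-HSC cells (2.11%) at least 6 of 18 T or NK cell marker genes had a UMI, against 1 LT-HSC cell; this cut was set after the counts were seen. In those 140 cells the 18 markers summed to 4544 CPM, with 17 of the 18 detected and Cd8a at 0. The sum was 109 CPM in the Hlf-high ST-HSC cells that were not marker-rich. The 140 cells were chosen by this same list, so neither the sum nor the number detected is separate evidence of their type. They had a median of 6913.5 UMIs per cell and held 54.1% of the Gimap4 UMIs and 50.4% of the Gimap3 UMIs of ST-HSC, but 12.7% of those of Gimap7, 8.11% of Gimap8, 7.29% of Gimap5, 3.89% of Gimap9, 2.999% of Gimap6 and 1.97% of Gimap1. Without them and the 1 LT-HSC cell, Gimap4 had a ratio of 2.12 (1.80 to 2.498), at 6.22 CPM in ST-HSC and 2.94 CPM in LT-HSC, a mean below 5 CPM. Gimap3 then had a ratio of 0.867 (0.697 to 1.08), the other direction, and Gimap7 one of 7.17 (5.998 to 8.64). The summed ratio was 1.45 (1.42 to 1.47). Of the 6 members still at a mean of 5 CPM or more, 1 had a ratio of at least 2 (Gimap7) and none of at most 0.5, against 10.7% and 2.87% of all genes.

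**Figure D2:**
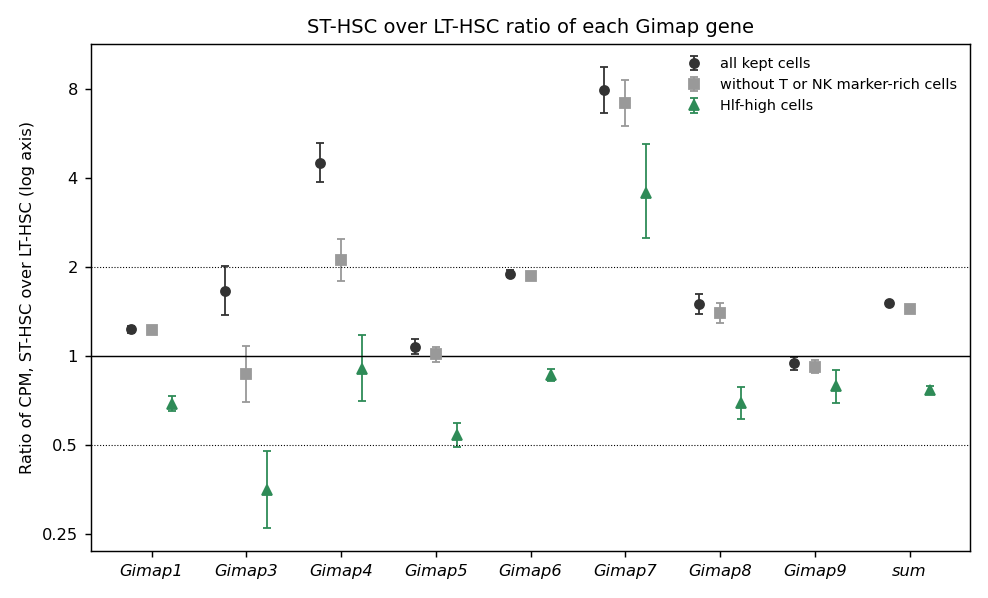
Ratio of CPM, ST-HSC over LT-HSC, of each Gimap gene and of their sum, on a log axis: circles are all kept cells, squares the cells left without those rich in T or NK markers, triangles the Hlf-high cells; bars are exact 95% counting intervals and dotted lines mark 2 and 0.5. Gimap7 lies above 2 in all 3 sets of cells, while the sum is at 1.51 over all kept cells and at 0.768 in Hlf-high cells.

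The makeup of the 2 libraries differed widely. Cells were grouped by the RNA of 4 genes: Hlf, a transcription factor of stem cells, Dntt, the DNA polymerase of early lymphoid cells, Car1, a carbonic anhydrase of erythroid progenitors, and Pf4, the platelet chemokine. Hlf-high cells had at least 5 Hlf UMIs per 10000, Dntt-positive cells at least 2 Dntt UMIs, Car1-high cells at least 30 Car1 UMIs per 10000 and Pf4-high cells at least 10 Pf4 UMIs per 10000, and cells that met several rules were set aside. Hlf-high cells were 34.0% of ST-HSC (2261 cells) and 16.3% of LT-HSC (443 cells). Car1-high cells were 2.72% of ST-HSC (181 cells) and 23.7% of LT-HSC (644 cells). Dntt-positive cells were 17.1% of ST-HSC (1135 cells) and 1 cell in LT-HSC, and Pf4-high cells were 5 cells in ST-HSC and 9.11% of LT-HSC (248 cells). These are ranges of a level and not types: 1281 ST-HSC and 440 LT-HSC cells lay within a factor of 2 below the Hlf cut. A list of 12 stem cell markers, Hlf among them, summed to 4676 CPM in Hlf-high ST-HSC cells and 4457 CPM in Hlf-high LT-HSC cells, with all 12 detected in both. Hlf, which chose the cells, counts in both sums. Gene by gene, none of the 12 had a ratio of at least 2 in Hlf-high cells and 3 had one of at most 0.5, against 6.25% and 4.49% of all genes. The median log2 ratio was -0.52 over the 12 and 0.01 over all genes.

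Within Hlf-high cells the order of the libraries turned round. The family summed to 657 CPM in Hlf-high ST-HSC cells against 855 CPM in Hlf-high LT-HSC cells, a ratio of 0.768 (0.744 to 0.792), and 7 of the 8 members had the lower level in ST-HSC. With the Hlf cut doubled Gimap9 was no longer among them, its log2 ratio of -0.34 becoming 0.02. Gimap6 was at 305 CPM in ST-HSC and 353 CPM in LT-HSC, a ratio of 0.864 (0.823 to 0.906). Gimap1 was at 183 CPM in ST-HSC and 265 CPM in LT-HSC, a ratio of 0.690 (0.652 to 0.730). Gimap5 was at 52.6 CPM in ST-HSC and 97.4 CPM in LT-HSC, a ratio of 0.540 (0.490 to 0.595). Its relative Gimap3 was 2.84-fold lower (2.102 to 3.82), at 4.35 CPM in ST-HSC and 12.4 CPM in LT-HSC. Gimap8 had a ratio of 0.694 (0.614 to 0.786) and Gimap9 one of 0.789 (0.696 to 0.897). The interval of Gimap4 included 1, with 11.8 CPM in ST-HSC, 13.0 CPM in LT-HSC and a ratio of 0.907 (0.707 to 1.18). Gimap7 alone was higher in ST-HSC, at 19.9 CPM against 5.59 CPM in LT-HSC, a ratio of 3.55 (2.501 to 5.21).

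In Hlf-high cells all 8 members had a mean of at least 5 CPM, and Gimap7 was past 2-fold higher and Gimap3 past 2-fold lower, that is 1 of 8 each way, against 6.25% of all 10759 such genes higher and 4.49% lower. The median log2 ratio was -0.43 over the members and 0.01 over all genes. Without the 4 marker-rich ST-HSC cells among the Hlf-high cells, the sum had a ratio of 0.767 (0.744 to 0.792), Gimap7 one of 3.53 and Gimap3 one of 0.336, again 1 member past 2-fold each way against 6.21% of all genes higher and 4.47% lower. In Hlf-high cells that were not cycling (under 1% of thinned UMIs from 48 listed S and G2/M phase genes) the summed ratio was 0.769 (0.745 to 0.793), with 1 member past 2-fold each way against 6.16% of all genes higher and 4.52% lower. The 18 T or NK markers summed to 112 CPM in Hlf-high ST-HSC cells and 47.4 CPM in Hlf-high LT-HSC cells, and their part in these ratios was not tested. The median depth was 10323 UMIs per Hlf-high ST-HSC cell and 11269 per Hlf-high LT-HSC cell.

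The cells that met none of the 4 rules had the same order. Their Gimap sum was 336 CPM in ST-HSC (2517 cells) against 401 CPM in LT-HSC (1380 cells), a ratio of 0.837 (0.816 to 0.858), and without marker-rich cells it was 284 CPM in ST-HSC against 401 CPM in LT-HSC, a ratio of 0.710 (0.691 to 0.729). Gimap7 had a ratio of 2.70 (2.14 to 3.45) there without marker-rich cells. Gimap4 had a ratio of 5.41 (4.42 to 6.69) with those cells and 1.18 (0.920 to 1.51) without them. With those cells 2 of 7 members (Gimap4 and Gimap7) were past 2-fold higher and none past 2-fold lower, against 5.74% of all genes higher and 4.04% lower. Without them 1 of 6 (Gimap7) was past 2-fold higher and none lower, against 5.36% and 3.99%. The part that the unequal shares of the classes have in the ratio over all cells was not tested.

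The summed Gimap level was higher in cells with more Hlf. In ST-HSC the summed level was 207 CPM in cells with no Hlf UMI, 280 CPM in cells with more than 0 and under 2 Hlf UMIs per 10000, 428 CPM from 2 to 5, 543 CPM from 5 to 10 and 760 CPM at 10 or more. In LT-HSC the same bins held 86.9, 258, 636, 836 and 961 CPM. The bins take in all kept cells, and by the rules the Dntt-positive, Car1-high and Pf4-high classes lie below 5. The bins are thus not separate from the class comparisons. Median depth was 13669 UMIs in the lowest and 9678.5 in the highest ST-HSC bin, and 22889 and 10284 in LT-HSC. The part of class and depth in the order of the bins was not tested. From the lowest to the highest bin, each library's sum was higher in each bin than in the one before it, and neighbouring intervals did not overlap. Gimap9 spanned the narrowest range relative to its level, from 24.6 to 42.6 CPM across the ST-HSC bins and from 30.9 to 53.6 CPM across the LT-HSC bins. Gimap4 and Gimap3 broke the order in ST-HSC: their highest level, 32.7 CPM for Gimap4 and 8.23 CPM for Gimap3, was in cells with no Hlf UMI, the bin that held 113 of the 140 marker-rich cells. Gimap8 was at 10.6 CPM in that bin and 9.40 CPM in the next, with intervals that overlap. In LT-HSC 3 members were lower in the highest bin than in the one before it, each with overlapping intervals: Gimap1 had 268 CPM from 5 to 10 and 249 CPM at 10 or more, Gimap9 had 53.6 and 43.4 CPM, and Gimap7 had 5.80 and 4.34 CPM.

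**Figure D3:**
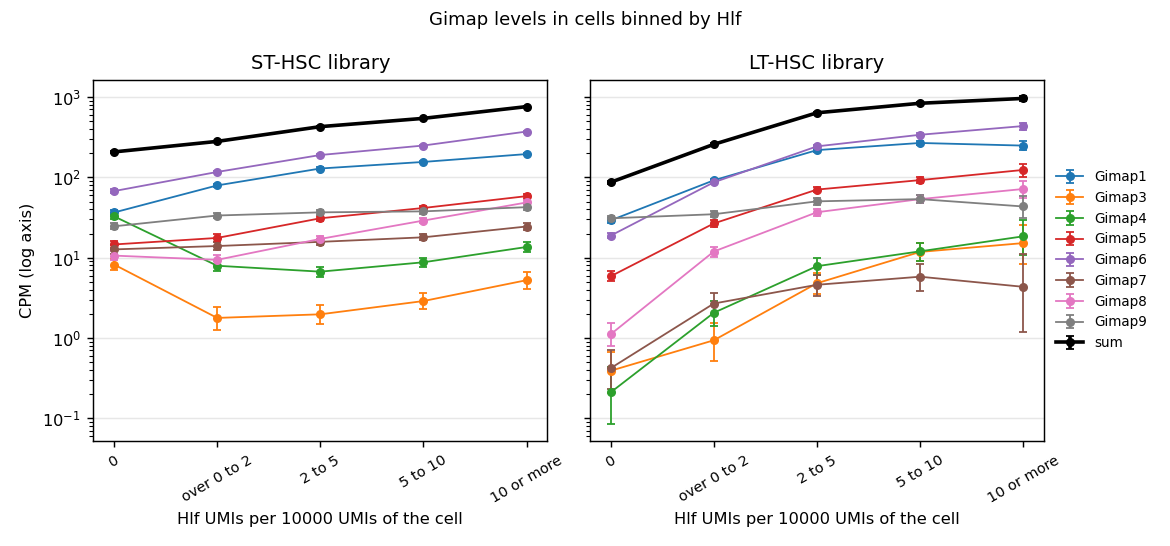
Level of each Gimap gene and of their sum (black), in CPM on a log axis, in cells grouped by their Hlf UMIs per 10000 UMIs, low to high, with ST-HSC on the left and LT-HSC on the right; bars are exact 95% counting intervals. The sum reaches 760 CPM in the highest ST-HSC bin and 961 CPM in the highest LT-HSC bin, and Gimap9 is the flattest line.

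Dntt-positive cells of ST-HSC kept part of the family. Their Gimap sum was 363 CPM against 657 CPM in Hlf-high ST-HSC cells, a ratio of 0.552 (0.538 to 0.567), and all 8 members were below their Hlf-high level. Gimap7 and Gimap9 were nearest to it: Gimap7 had 19.2 CPM in Dntt-positive and 19.9 CPM in Hlf-high cells, a ratio of 0.968 (0.852 to 1.10), and Gimap9 had 36.6 CPM in Dntt-positive and 41.2 CPM in Hlf-high cells, a ratio of 0.890 (0.813 to 0.973). Gimap6 was at 170 CPM in Dntt-positive and 305 CPM in Hlf-high cells, a ratio of 0.558 (0.537 to 0.580). Gimap8 was 3.59-fold lower (3.12 to 4.15), at 10.9 CPM in Dntt-positive and 39.3 CPM in Hlf-high cells. Gimap5 was 2.64-fold lower (2.37 to 2.95), at 19.9 CPM in Dntt-positive and 52.6 CPM in Hlf-high cells. Of 7 members at a mean of 5 CPM or more, 2 had a ratio of at most 0.5 (Gimap5 and Gimap8) and none of at least 2, against 2.91% and 1.29% of all genes. Without marker-rich cells it was 3, since Gimap4 then had a ratio of 0.367 (0.287 to 0.465), and the shares of all genes were again 2.91% and 1.29%.

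Car1-high cells had little Gimap RNA in either library, with Gimap9 as the exception. The sum was 32.6 CPM in Car1-high ST-HSC cells against 657 CPM in Hlf-high ones, 20.1-fold lower (17.7 to 23.0). In LT-HSC it was 63.7 CPM in Car1-high against 855 CPM in Hlf-high cells, 13.4-fold lower (12.7 to 14.2). Gimap6, at 12.3 CPM in Car1-high LT-HSC cells, was 28.6-fold below the Hlf-high level (25.4 to 32.3), and Gimap1, at 15.6 CPM, was 17.0-fold below it (15.2 to 19.1). Gimap9 was at 17.3 CPM in Car1-high and 41.2 CPM in Hlf-high ST-HSC cells, 2.38-fold lower (1.97 to 2.89). In LT-HSC it was at 30.7 CPM in Car1-high and 52.2 CPM in Hlf-high cells, 1.70-fold lower (1.48 to 1.94). Gimap9 made up 53.1% of the Gimap UMIs of Car1-high ST-HSC cells against 6.27% in Hlf-high ones, and 48.2% in Car1-high LT-HSC cells against 6.10% in Hlf-high ones. In barcodes outside the cell filter its share was 5.77% in ST-HSC and 8.57% in LT-HSC.

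All 7 members at a mean of 5 CPM or more had a ratio of at most 0.5 in ST-HSC, against 29.9% of all genes, and 6 of 7 did in LT-HSC, all but Gimap9, against 31.3% of all genes. None had a ratio of at least 2, where 11.4% of all genes did in ST-HSC and 10.3% in LT-HSC. Between the libraries, Car1-high cells had a summed ratio of 0.512 (0.444 to 0.589), from 228 UMIs in ST-HSC and 1626 in LT-HSC. Of the 3 members with a mean of 5 CPM or more there, Gimap1 was at 3.58 CPM in ST-HSC and 15.6 CPM in LT-HSC, 4.35-fold lower (2.90 to 6.80), the only 1 of the 3 past 2-fold either way, against 4.43% of all genes lower and 4.89% higher. Gimap9 had a ratio of 0.564 (0.462 to 0.684) and Gimap6 one of 0.592 (0.431 to 0.797), a log2 ratio of -0.76 that became 0.06, the other direction, with the Car1 cut doubled. The Car1-high cells had a median of 39211 UMIs in ST-HSC and 34759 in LT-HSC, well above those of Hlf-high cells.

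Pf4-high cells, numerous enough only in LT-HSC, lay between the Car1-high and Hlf-high cells by their summed level. Their Gimap sum was 147 CPM against 855 CPM in Hlf-high LT-HSC cells, 5.80-fold lower (5.42 to 6.20). Gimap6 was at 34.6 CPM in Pf4-high and 353 CPM in Hlf-high cells, 10.2-fold lower (8.95 to 11.7). Gimap1 was at 62.0 CPM in Pf4-high and 265 CPM in Hlf-high cells, 4.27-fold lower (3.84 to 4.76), so that Gimap1 was the leading member there. Gimap9 was at 27.0 CPM in Pf4-high and 52.2 CPM in Hlf-high cells, 1.93-fold lower (1.61 to 2.32). It did not lie between the classes, since Car1-high LT-HSC cells had 30.7 CPM. Of 7 members at a mean of 5 CPM or more, 6 had a ratio of at most 0.5, all but Gimap9, and none of at least 2, against 17.3% and 7.32% of all genes. The 278 ST-HSC cells rich in the granule genes Mpo, Elane and Ctsg, a set added to the 4 rules, had a sum of 107 CPM, 6.15-fold below that of Hlf-high cells (5.74 to 6.59), with all 7 such members at a ratio of at most 0.5 and none higher, against 17.1% of all genes lower and 4.71% past 2-fold higher. Gimap9 was again the nearest, at 18 CPM against 41.2 CPM in Hlf-high cells, 2.29-fold lower.

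**Figure D4:**
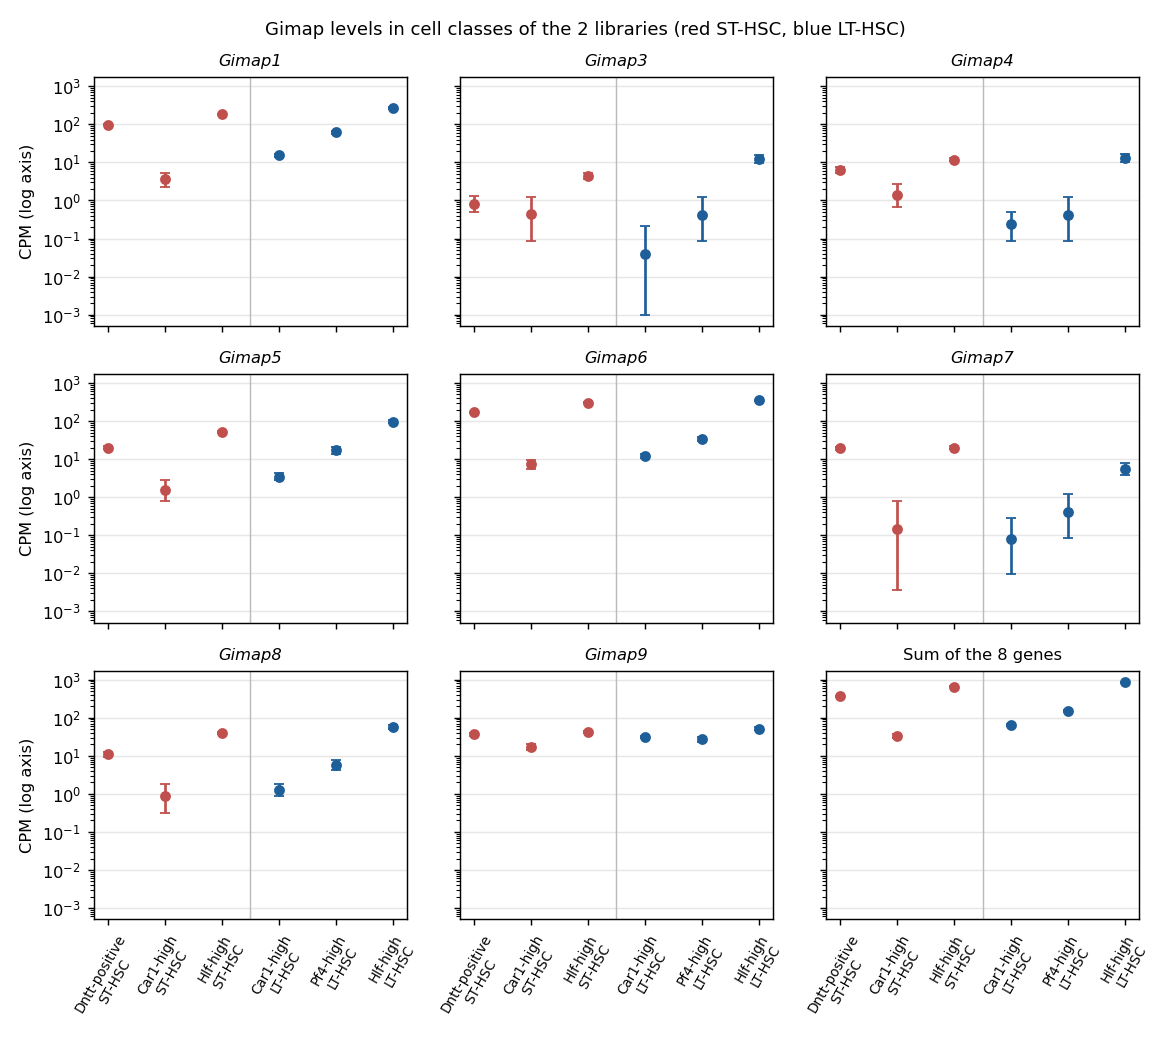
Level of each Gimap gene and of the sum of the 8, in CPM on a log axis, in the cell classes of ST-HSC (red) and LT-HSC (blue), each with Hlf-high cells on the right; bars are exact 95% counting intervals. Every panel has its lowest level in Car1-high cells of 1 of the libraries, and the Gimap9 panel spans the smallest range, 17.3 to 52.2 CPM. Within LT-HSC, Gimap9 is lowest in Pf4-high cells, at 27.0 CPM.

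The marker-rich cells of ST-HSC had another mixture of members. They were chosen with the T or NK list, which holds no Gimap gene. Only 4 of the 140 were Hlf-high, and they were compared with the Hlf-high ST-HSC cells that were not marker-rich. The Gimap sum of the marker-rich cells was 1906 CPM against 656 CPM in those Hlf-high cells, 2.90-fold higher (2.79 to 3.02). Gimap4 was the leading member of the marker-rich cells, at 562 CPM against 11.1 CPM in Hlf-high cells, a ratio of 50.6 (44.4 to 57.7). Gimap3, though below Gimap6, Gimap1, Gimap5 and Gimap7 in level there, came next by ratio with 148 CPM against 4.16 CPM in Hlf-high cells, a ratio of 35.6 (28.4 to 44.9), and then Gimap7 with 162 CPM against 19.7 CPM in Hlf-high cells, a ratio of 8.21 (7.02 to 9.57). Gimap6 had a ratio of 1.44 (1.33 to 1.56), and Gimap1 was near equal, at 178 CPM against 183 CPM in Hlf-high cells, with a ratio of 0.973 (0.855 to 1.10). In all, 6 of 8 members had a ratio of at least 2 and none of at most 0.5, against 7.19% and 12.4% of all genes. Cycling made less of a difference: in the 81 cycling Hlf-high ST-HSC cells the sum was 531 CPM against 657 CPM in the 2065 that were not cycling, a ratio of 0.809 (0.753 to 0.868). Gimap6 had a ratio of 0.645 (0.573 to 0.724) there and Gimap1 one of 1.13 (1.002 to 1.27). None of 7 members was past 2-fold in either direction, against 3.8% of all genes higher and 3.74% lower. In Dntt-positive cells the sum was 322 CPM in 105 cycling cells against 366 CPM in 1016 cells that were not cycling, a ratio of 0.880 (0.815 to 0.949), with none of 6 members past 2-fold, against 2.75% of all genes higher and 2.02% lower.

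To count cells with a Gimap UMI at equal depth, each cell was thinned at random to 5000 UMIs, which left out 281 ST-HSC and 68 LT-HSC cells. At least 1 member was then detected in 77.5% of ST-HSC cells (76.4 to 78.5) and 65.5% of LT-HSC cells (63.6 to 67.3). Without thinning these shares were 91.2% in ST-HSC and 92.2% in LT-HSC. In thinned Hlf-high cells the share was 92.3% in ST-HSC and 98.4% in LT-HSC. It was 12.3% of Car1-high ST-HSC cells and 29.8% of Car1-high LT-HSC cells and 51.0% of Pf4-high LT-HSC cells. Gimap6 was detected in 72.2% of Hlf-high ST-HSC cells and 77.6% of Hlf-high LT-HSC cells, and Gimap1 in 61.1% of ST-HSC and 72.5% of LT-HSC ones. Gimap7 was detected in 10.1% of Hlf-high ST-HSC cells and 2.80% of Hlf-high LT-HSC cells. Gimap3, Gimap4 and Gimap7 had no UMI in 179 thinned Car1-high ST-HSC cells and 640 such LT-HSC cells, which allows a share of cells with a UMI of up to 1.68% in ST-HSC and 0.469% in LT-HSC by a limit of 3 counts, and of up to 2.04% in ST-HSC and 0.575% in LT-HSC by the upper end of the Clopper-Pearson interval.

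Several members were often found in the same Hlf-high cell. After thinning, Hlf-high cells held a mean of 2.15 members in ST-HSC and 2.47 in LT-HSC, and 38.0% of the ST-HSC cells (35.9 to 40.1) and 46.2% of the LT-HSC cells (41.4 to 51.0) held at least 3. Gimap1 and Gimap6 were both present in 46.0% of Hlf-high ST-HSC cells and 56.2% of Hlf-high LT-HSC cells. Taken singly, Gimap1 was detected in 61.1% and Gimap6 in 72.2% of these ST-HSC cells. In the LT-HSC cells these single shares were 72.5% and 77.6%. With single shares this high, many cells hold both genes even if detection is unlinked. Whether joint presence exceeded that rate was not tested. Marker-rich ST-HSC cells held a mean of 4.89 members, and 82.1% of the 106 deep enough held at least 4, against 12.6% of Hlf-high cells. Within Hlf-high ST-HSC cells, 50 of 56 ordered pairs of members had a higher detection rate in cells with the partner than in cells without it, by a median of 4.03 percentage points, and in 25 the intervals did not overlap. Gimap5 was detected in 45.3% of cells with Gimap3 (31.6 to 59.6) and 23.5% of cells without it (21.7 to 25.3), and Gimap1 in 70.1% of cells with Gimap5 and 58.2% of cells without it. In Hlf-high LT-HSC cells, 30 of the 49 ordered pairs with at least 20 cells holding the partner went the same way, by a median of 1.78 points, and in 2 the intervals did not overlap. Both orders of a pair always share a direction, so these are not counts of separate pairs, and cells are not replicates. Pairs of other genes were not counted, so the counts have no background to be read against. Whether intervals overlap also depends on the number of thinned Hlf-high cells, 2146 in ST-HSC and 429 in LT-HSC. In other LT-HSC classes the pairs went either way: 11 of 21 were higher with the partner in Car1-high cells, by a median of 0.0493 points, and 8 of 21 in Pf4-high cells, by a median of 0 points. At least 3 members were found in 0.938% of Car1-high and 2.45% of Pf4-high LT-HSC cells. Of the members, Gimap6 had the highest ratio of variance to mean, 1.97 in thinned Hlf-high ST-HSC cells and 1.90 in LT-HSC ones. Counting alone gives 1, and Gimap9 stood at 1.01 in ST-HSC and 1.09 in LT-HSC. Gimap6 also had the highest mean, 1.74 UMIs per such cell in ST-HSC and 1.92 in LT-HSC. The ratio was not corrected for level, so it does not rank the members by cell-to-cell variation.

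**Figure D5:**
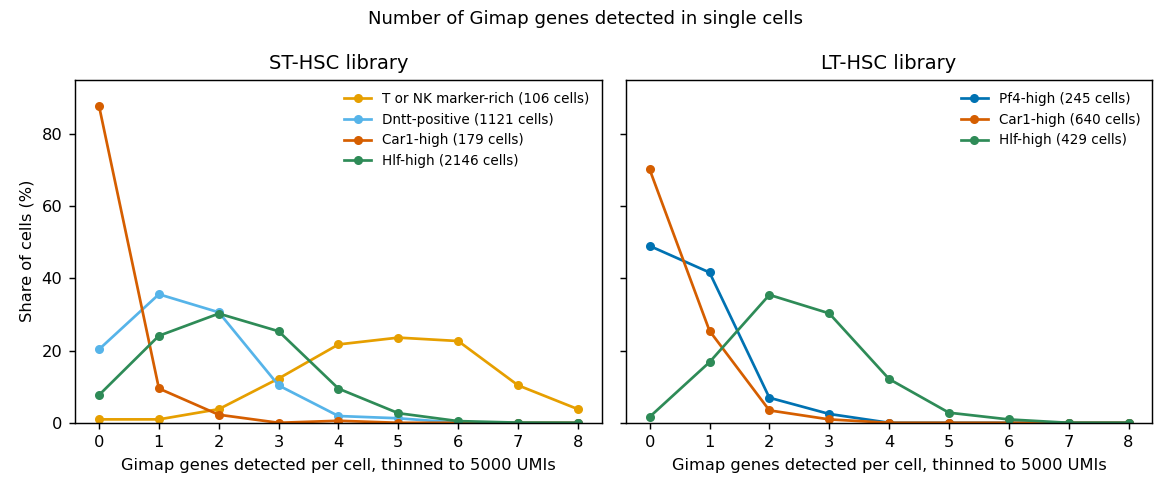
Share of cells (%) by the number of Gimap genes detected per cell after thinning to 5000 UMIs, for classes of ST-HSC (left) and LT-HSC (right), with the number of cells in each legend. Car1-high cells pile up at 0 (87.7% in ST-HSC and 70.2% in LT-HSC), the commonest number is 2 in Hlf-high cells of both libraries and 5 in marker-rich cells.

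Genes that share the locus but not the family were a further comparison. 4833403J16Rik, between Gimap5 and Gimap3, had 3.10 CPM in Dntt-positive, 0.430 CPM in Car1-high and 9.48 CPM in Hlf-high ST-HSC cells. In LT-HSC it had 0.431 CPM in Car1-high, 3.50 CPM in Pf4-high and 17.4 CPM in Hlf-high cells. Gimap1os had 2.87 CPM in Dntt-positive, 0.143 CPM in Car1-high and 14.5 CPM in Hlf-high ST-HSC cells, and Gm44226 was at most 0.508 CPM in each of these classes. Both 4833403J16Rik and Gimap1os thus had their highest level of these classes in Hlf-high cells, as all 8 members did. Across 8 groups of cells (classes of both libraries), the genes whose log2 levels followed the Gimap sum most closely were Neurl3, Il18, AC149090.1, Rabep2, Tmem71, Rab2a, Trim30d, Parp4, Pgap2 and Dennd1c, with Pearson's r from 0.996 to 0.997. Tmem71 (r = 0.998) and Rabep2 (r = 0.998) were also the nearest to Gimap6, Ccdc50 (r = 0.997) to Gimap1, Rora (r = 0.998) to Gimap5, Csf3r (r = 0.996) to Gimap7, Cask (r = 0.987) to Gimap4, Gm16070 (r = 0.997) to Gimap8 and Birc2 (r = 0.991) to Gimap9. Among members, Gimap5 and Gimap8 were closest, with r = 0.984, and Gimap4 and Gimap9 farthest, with r = 0.579. The 8 groups share 2 libraries and their depths, so these are descriptions only.

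Genes known to act with the family did not reach a 2-fold difference over all cells. Of 5 such genes, none had a ratio of at least 2 or at most 0.5, against 10.8% and 2.88% of all genes. Bcl2, an inhibitor of cell death, was at 138 CPM in ST-HSC and 79.8 CPM in LT-HSC, a ratio of 1.72 (1.67 to 1.78). Bax, which promotes cell death, was at 81.7 CPM in ST-HSC and 126 CPM in LT-HSC, a ratio of 0.646 (0.627 to 0.666). Gabarapl2 was at 79.9 CPM in ST-HSC and 111 CPM in LT-HSC, a ratio of 0.721 (0.699 to 0.744), and Gsk3b, a kinase held in check by Gimap5 in mouse T cells, was at 159 CPM in ST-HSC and 120 CPM in LT-HSC, a ratio of 1.33 (1.29 to 1.36). The 5 measured ATG8 genes had ratios from 0.661 for Map1lc3a to 0.926 for Gabarapl1, with none past 2-fold.

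Other immune GTPases had a median ratio below 1 over all cells and in Hlf-high cells. Of 15 measured interferon-induced GTPases of the IRG and GBP families, which attack vacuoles that hold microbes, 3 had a ratio of at most 0.5 and none of at least 2, against 2.88% and 10.8% of all genes, with a median log2 ratio of -0.59. Tgtp1 was at 10.1 CPM in ST-HSC and 26.5 CPM in LT-HSC, 2.62-fold lower (2.43 to 2.83), Tgtp2 2.21-fold lower (2.09 to 2.34) and Ifi47 2.15-fold lower (2.09 to 2.21). Tgtp1 and Tgtp2 are near-identical copies, so the split of reads between them is uncertain. In Hlf-high cells 5 of 15 had a ratio of at most 0.5 and none of at least 2, against 4.49% and 6.25% of all genes, with a median of -0.68. Of 8 measured regulators of T-lineage development, 5 had a ratio of at least 2 and none of at most 0.5, against 10.8% and 2.88% of all genes, with a median log2 ratio of 1.53. Without marker-rich cells the count was also 5, and in Hlf-high cells it was 4 higher and 1 lower, against 6.25% and 4.49% of all genes, with a median of 0.93. Satb1, a chromatin organiser of lymphoid cells, was at 178 CPM in ST-HSC and 5.21 CPM in LT-HSC, a ratio of 34.2 (30.7 to 38.2). Notch1, the receptor that starts T-lineage commitment, had a ratio of 7.004 (6.29 to 7.81), Tox one of 4.84 (4.64 to 5.06) and Ets1 one of 3.49 (3.13 to 3.91).

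Markers of other cell types differed as follows. Over all kept cells 10.8% of all genes had a ratio of at least 2 and 2.88% one of at most 0.5, the shares to read these counts against. The 18 T or NK markers summed to 213 CPM in ST-HSC and 115 CPM in LT-HSC, where Cd8a and Gzma were at 0. Of 5 measured ones, 4 had a ratio of at least 2. Without marker-rich cells 1 of 3 measured ones did, against 10.7% of all genes. The 8 B cell markers summed to 27.7 CPM in ST-HSC and 22.5 CPM in LT-HSC, nearly all from Cd79b, with none of the 1 measured past 2-fold. The 8 endothelial markers summed to 315 CPM in ST-HSC and 172 CPM in LT-HSC, and of 5 measured, Pecam1 was higher at a ratio of 4.76, Vwf and Tek were lower at 0.126 and 0.376, and Cdh5, the defining adhesion gene, was at 0.188 CPM in ST-HSC and 0.0928 CPM in LT-HSC. Of 11 measured stem cell markers, Hlf (3.28) and Mecom (2.31) had a ratio of at least 2 and Slamf1 was 21.05-fold lower. The part of these other cells in the Gimap ratios over all cells was not tested beyond leaving out the marker-rich cells.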

How the data were processed

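Single-cell RNA of sorted mouse stem cells was measured in 2 libraries (ST-HSC and LT-HSC) made with the 10x Genomics 3′ v2 kit, per the labels. The authors deposited 1 matrix of raw UMI counts per library over 32285 genes, with no normalization; the counts are on mouse build mm10 and were made with Cell Ranger 7.2 per the submitters' processing notes, while the file headers name 7.1.0. Cells with at least 1000 genes and under 10% mitochondrial UMIs were kept, 6648 in ST-HSC (111783180 UMIs) and 2722 in LT-HSC (64673871 UMIs). Counts were summed per library and cell class and divided by their total (CPM). Ratios have exact conditional binomial intervals, levels exact Poisson intervals and shares Clopper-Pearson intervals, all at 95% and for counting error only. With 1 library per group no test was possible; a gene was called by a ratio of at least 2 or at most 0.5 among genes with a mean of at least 5 CPM. Shares and co-detection used cells thinned to 5000 UMIs. Likeness of profiles was Pearson's r of log2(CPM + 1) over 8 library and class sums, among genes with a mean of at least 20 CPM.

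No cell was removed as a doublet. Scrublet (scanpy 1.11.5) marked 0 ST-HSC and 7 LT-HSC cells (0.257%), so it did not work, and leaving out the 402 ST-HSC and 40 LT-HSC cells with the highest scores was an alternative. TMM factors came from edgeR 4.0.16. Gene positions came from GENCODE M21, which held 32158 of the 32285 gene IDs, and promoter windows from RefSeq (GRCm38.p6), which held all 8 members. The calculations were tested on simulated data. Named genes were the 8 members, Hlf, Dntt, Car1 and Pf4, the genes between the members, the 10 most like the Gimap sum and the 3 most like each member with a mean of at least 5 CPM, and up to 4 genes per list by size of ratio. Mpo, Elane, Ctsg and the sort markers were added, as were Cdh5, Cd79b, Cd8a, Gzma and Nkg7. The members and lists were chosen with earlier results of these data known. Alternatives were another scaling, filter, class cut, doublet rule and thinning depth, and leaving out cells with T or NK markers, of which the marker-rich rule was chosen after seeing the data.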

Additional observations from a re-analysis of the deposited data

Results flagged for a closer look

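The barcodes that failed the cell filter, which no comparison used, also held Gimap UMIs. Their Gimap sum was 316 CPM in ST-HSC (938 barcodes, 537 UMIs, 290 to 344) and 72.2 CPM in LT-HSC (216 barcodes, 35 UMIs, 50.3 to 100.4), both above the level that a count of 0 allows. Gimap6 made up 48.8% of these UMIs in ST-HSC and 37.1% in LT-HSC, and Gimap9 5.77% in ST-HSC and 8.57% in LT-HSC.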

How the results depend on the processing

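No paired analysis was possible because each group had 1 library. No summed ratio changed direction under any alternative run. Over all cells the summed log2 ratio of 0.60 became 0.47 under TMM, 0.45 under median-of-ratios scaling, 0.53 without marker-rich cells and 0.43 without the cells holding 3 or more T or NK list UMIs, which left 1 member at 2-fold or more in place of 2. With no filter on low counts, 5946 genes were higher and 2579 lower, against 1126 and 300. In Hlf-high cells the log2 ratio of -0.38 became -0.30 with the Hlf cut doubled and -0.47 with cells meeting several rules kept, when 2 members were at 0.5 or less. In Car1-high cells the log2 ratio of -0.96 became -0.76 with the cut halved and -0.56 with it doubled. Of all 8 members, with no limit on level, 2 were at 2-fold or more there and 2 at 0.5 or less. The 2 higher ones were Gimap3 (3 UMIs in ST-HSC, 1 in LT-HSC) and Gimap4 (10 and 6). Among genes at a mean of 5 CPM or more, 4.89% were higher and 4.43% lower. The counts of members became 1 and 4, both with the cut doubled and without the highest Scrublet scores. The share of all genes was not counted under those 2 alternatives.

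Against Hlf-high cells, Dntt-positive ST-HSC cells had log2 ratios of -0.82 with all cuts halved, -1.01 with them doubled and -0.57 with cells meeting several rules kept. With the cuts doubled 5 of all 8 members were at 0.5 or less, in place of 3. At the first cuts 2.91% of all genes at a mean of 5 CPM or more were that low. The share with doubled cuts was not counted. Car1-high ST-HSC cells had -4.01 with cuts halved and -4.10 with such cells kept. Car1-high LT-HSC cells had -3.42 with cuts halved and -4.23 with them doubled, and Pf4-high LT-HSC cells had -2.40 with cuts halved and -2.74 with them doubled. The share of cells with any member was 61.3% in ST-HSC and 49.3% in LT-HSC at 2500 UMIs, and 83.6% in ST-HSC and 74.7% in LT-HSC at 10000 UMIs, where 58.8% of Hlf-high ST-HSC cells and 76.0% of Hlf-high LT-HSC cells held at least 3 members. Of 275 single-member log2 ratios under alternatives, 267 kept their direction and 8 did not: Gimap3 and Gimap5 over all cells (5 of the 8), Gimap9 in Hlf-high cells with the cut doubled (0.02), Gimap6 in Car1-high cells with the cut doubled (0.06) and Gimap7 in Dntt-positive cells with all cuts halved (0.12). The cause was not tested. Ratios of Gimap3, Gimap4 and Gimap7 in Car1-high and Pf4-high cells rest on few counts, since each had 10 UMIs or fewer per library. These cells had a higher median of UMIs per cell than the Hlf-high cells.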
